A study of Mus musculus with 4 samples.

Results

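Collagen genes encode the chains that wind in threes into collagen molecules, and they were read as a group from the transcriptomes of YFP-sorted tumor cells of the mouse mammary gland. Members were the rows of the deposited expression table whose gene symbol has the form of a collagen chain (Col, a type number, a, a chain number), which gave 44 genes of 23951 gene rows. The cells came from tumors of female MMTV-PyMT mice, in which the MMTV promoter drives polyoma middle T antigen in mammary epithelium. All 4 samples also carried the Rosa26-Stop-YFP reporter (R26Y), received Cre by intraductal injection of Ad-K8-Cre, an adenovirus with Cre under the Krt8 promoter of luminal cells, and were sorted for YFP 2 to 3 months later. There were 2 wild-type libraries (Lsd1+/+) and 2 libraries titled and genotyped as Lsd1 knockout, from mice with conditional alleles (Lsd1L/L) per the series' design text. The tissue label of these last 2 also reads Lsd1+/+, so they are called the pair labelled knockout. LSD1, encoded by Kdm1a, is a histone demethylase.

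Collagens fall into classes by how their trimers assemble. Fibrillar collagens form the banded fibrils of connective tissue; type IV chains form the sheet-like network of basement membranes beneath epithelium and around vessels; FACIT collagens attach to the surface of fibrils or to basement membrane zones and do not form fibrils themselves; transmembrane collagens are cell surface proteins. Type VI forms beaded filaments, type VII anchors basement membrane to the matrix below, and multiplexins (types XV and XVIII) sit in basement membrane zones and carry fragments such as endostatin. In mammary tumors fibrillar collagen is known mainly as a product of fibroblasts, and type IV of endothelial, epithelial and myoepithelial cells.

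Values were read as FPKM, since the deposited table names no unit and its values have that form: reads or fragments scaled to transcript length and library size, so levels may be compared between genes. FPKM summed to between 401785.7 and 449837.8 per library over all rows. No read totals were given. Whole-number ratios among values under 0.1 FPKM placed the depth of the other libraries at 0.85 to 1.03 of that of the second library labelled knockout. Only depths near equal were searched, so a much different depth could not have been returned. Kdm1a itself was at 52.5 and 22.9 FPKM in wild-type against 20.2 and 22.8 FPKM in the pair labelled knockout. Its difference of -0.67 did not pass (limma, adjusted p = 0.338). The difference moved to -0.09 when wild-type library 1 was dropped and to -1.25 when wild-type library 2 was. The second library of each group stood level, at 22.9 and 22.8 FPKM, so the Kdm1a level does not settle the labels. Across genes tested the wild-type pair had a Pearson correlation of 0.85 and the pair labelled knockout one of 0.98. The 7 luminal epithelial markers were above 1 FPKM in all 4 libraries, with the keratin gene Krt8 at 4653 and 929 FPKM in wild-type against 255 and 259 FPKM in the pair labelled knockout, where the lymphocyte markers were also present (1528 and 1442 FPKM summed over 8 genes). Whether each library is a different animal is not stated in the labels, and p-values therefore describe only how these 4 libraries spread, which may be technical.

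The collagen chains were expressed at a lower summed level in the pair labelled knockout. Summed collagen FPKM was 478 and 746 in wild-type against 184 and 186 in the pair labelled knockout. The groups did not overlap in this sum. Collagens made up 0.119% and 0.166% of all FPKM in wild-type, against 0.0458% and 0.0460% in the pair labelled knockout. The difference was uneven over the classes. FACIT chains summed to 257 and 113 FPKM in wild-type and to 17.3 FPKM in each library of the pair labelled knockout. Type IV chains summed to 41.3 and 192 FPKM against 9.34 and 11.4 FPKM. Fibrillar chains summed to 137 and 348 FPKM against 134 and 133 FPKM, so that the first wild-type library stood next to the pair labelled knockout and the second stood apart. As shares of collagen FPKM, FACIT chains held 53.7% and 15.2% in wild-type against 9.37% and 9.33%, while fibrillar chains held 28.6% and 46.6% against 72.7% and 71.7%. In bulk samples such as these, fewer cells of a type and less RNA per cell cannot be told apart.

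**Figure D1:**
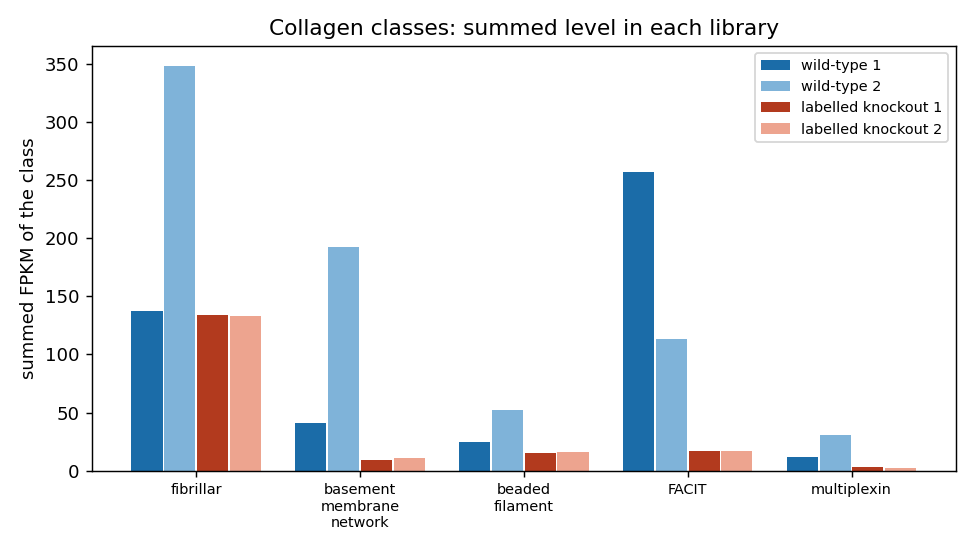
Summed FPKM (vertical axis, from 0) of the 5 collagen classes with the highest sums, 1 bar per library. FACIT bars are at 257 and 113 in wild-type and 17.3 in both libraries labelled knockout, while the fibrillar bar of the first wild-type library (137) is level with those labelled knockout (134 and 133).

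Of the 44 chains, 39 were above 0 in at least 1 library, and 22 reached 1 FPKM in at least 2 libraries and were tested with limma on log2(FPKM + 1). The genes Col4a3, Col4a4, Col19a1, Col22a1 and Col24a1, were listed at 0 in all 4 libraries. Of the tested chains 5 fell at an adjusted p of 0.05, none rose and 17 did not pass; among all 11138 genes tested 6.99% were lower and 9.51% were higher by the same rule. The 5 were Col9a1, Col9a2, Col9a3, Col16a1 and Col18a1. At an unadjusted p of 0.05, 10 of the 22 were lower, against 17.8% of all genes tested. Both libraries labelled knockout lay below both wild-type libraries for 27 of the 39 chains above 0, against 28.8% of all rows above 0, and they lay above for 3 chains (Col2a1, Col11a2 and Col23a1), against 32.0%. The median difference over these 39 chains was -0.70 on the log2(FPKM + 1) scale, beside -0.01 over all rows above 0, and over the tested chains it was -0.97, beside 0.08 over all genes tested. Of the tested chains 6 reached 1 FPKM through the wild-type libraries alone (Col4a5, Col4a6, Col6a3, Col11a1, Col12a1 and Col14a1), so they had to be lower. All 6 are in the median of -0.97, and Col4a6, Col6a3 and Col11a1 are among the 10 lower at an unadjusted p. That median and that count are therefore tilted toward lower values by the filter. None of the 5 chains that fell is among the 6.

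The number of chains past the threshold turned on single libraries. Without the first library labelled knockout 0 collagen chains passed limma's adjusted p, and without the second 0 passed (5 at an unadjusted p under 0.05 in each case). Without the first wild-type library 20 were lower, where 32.0% of all genes tested were lower and 37.3% higher. Without the second 14 were lower and 1 higher, where the shares over all genes were 32.7% and 38.3%. With 1 library left in a group, that library is assumed to vary like the other group. With no filter on low values 0 passed (limma; 9 at an unadjusted p under 0.05). All 5 chains that fell were lower in each of these fits. With 2 libraries a group an exact permutation test of 1 gene cannot go below p = 0.33, and the adjusted p-values borrow their spread from the other genes.

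**Figure D2:**
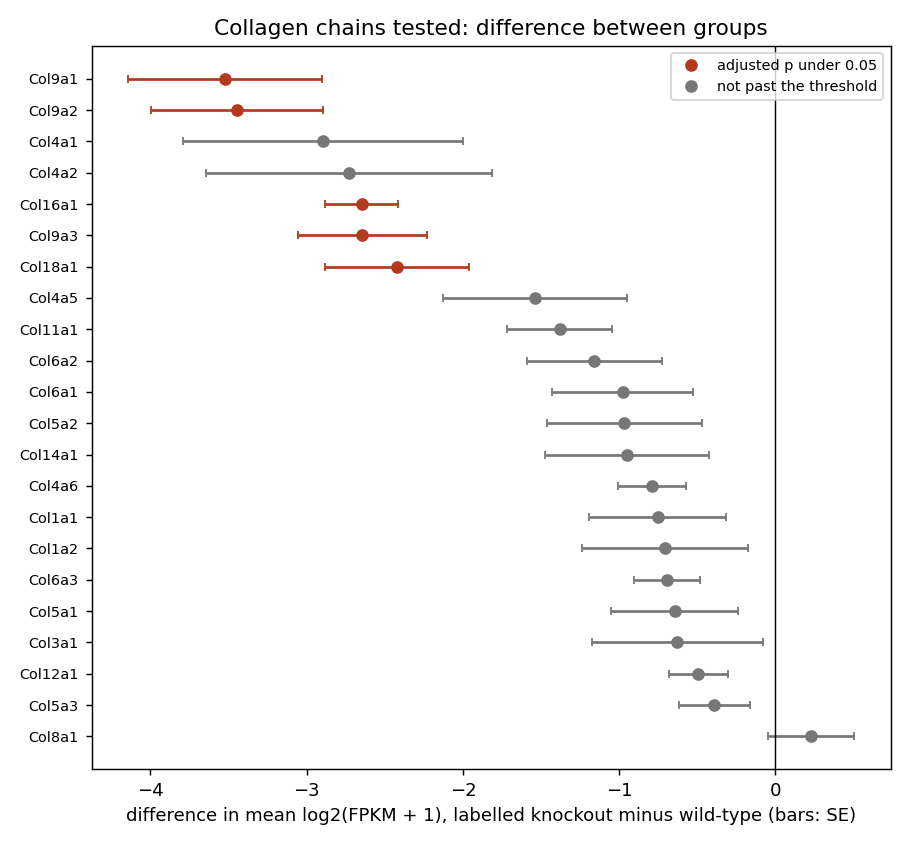
Difference in mean log2(FPKM + 1), labelled knockout minus wild-type, for the 22 chains tested (points, with SE as bars); red marks an adjusted p under 0.05. Differences run from -3.52 for Col9a1 to 0.23 for Col8a1, and Col4a1 and Col4a2 have the widest bars.

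Type IX collagen, a FACIT molecule built of 3 different chains and known best from cartilage, was the most abundant collagen type of the first wild-type library. Col9a1 was at 101 and 32.0 FPKM in wild-type against 4.54 and 3.61 FPKM in the pair labelled knockout. Col9a2 was at 69.9 and 25.2 FPKM against 2.88 and 3.04 FPKM. Col9a3 was at 46.8 and 22.7 FPKM against 4.03 and 4.76 FPKM. For each of the 3 genes the first wild-type library was highest, the second was intermediate, and the pair labelled knockout was lowest with no overlap. Col9a1 fell by 3.52 on the log2(FPKM + 1) scale (SE 0.62; limma, adjusted p = 0.041). Col9a2 fell by 3.45 (SE 0.55; limma, adjusted p = 0.037) and Col9a3 by 2.64 (SE 0.41; limma, adjusted p = 0.036). The ratio of Col9a1 to Col9a2 in FPKM was 1.45 and 1.27 in wild-type against 1.58 and 1.19 in the pair labelled knockout. The ratio of Col9a1 to Col9a3 was 2.17 and 1.41 against 1.12 and 0.758, lower in both libraries labelled knockout.

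Markers of cartilage, the tissue type IX collagen is known for, were read beside it. Acan and Matn1, the genes of the cartilage proteoglycan aggrecan and of matrilin 1, were listed at 0 in all 4 libraries. Comp was at 1.09 and 0.801 FPKM in wild-type against 0.169 and 0.0873 FPKM in the pair labelled knockout, in the same library order as Col9a1 in wild-type. Matn3 was at 0 and 0.0811 against 0 and 0.0414 FPKM. Neither Comp nor Matn3 was tested. Sox9, the gene of a transcription factor of chondrocytes that mammary epithelium also expresses, was at 73.1 and 13.8 FPKM in wild-type against 4.50 and 4.33 FPKM in the pair labelled knockout, which did not pass (limma, adjusted p = 0.11). The cartilage fibril chain Col2a1 was below 1 FPKM in every library.

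The promoters of the type IX genes are shown because the 3 chains fell together from different chromosomes. The RefSeq promoter table (GRCm38.p6, another build than the files' mm9) holds 250 bases before to 50 after each start. It has an upstream and a downstream start for Col9a1 and 1 start for Col9a2, while Col9a3 has no entry. Capitals mark short motifs searched on both strands. They are the GC box, spelled GGGCGG, the CCAAT box, spelled as its name, and the core promoter motif known as the TATA box, whose letters were TATAAA.
Col9a1 promoter, chr1:24177360-24177659, plus strand: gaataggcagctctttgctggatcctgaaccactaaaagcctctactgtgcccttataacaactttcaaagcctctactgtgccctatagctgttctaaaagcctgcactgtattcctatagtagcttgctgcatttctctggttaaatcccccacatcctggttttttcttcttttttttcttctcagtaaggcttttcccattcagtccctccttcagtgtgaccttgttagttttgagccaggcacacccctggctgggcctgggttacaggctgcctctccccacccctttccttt
Col9a1 promoter, chr1:24194953-24195252, plus strand: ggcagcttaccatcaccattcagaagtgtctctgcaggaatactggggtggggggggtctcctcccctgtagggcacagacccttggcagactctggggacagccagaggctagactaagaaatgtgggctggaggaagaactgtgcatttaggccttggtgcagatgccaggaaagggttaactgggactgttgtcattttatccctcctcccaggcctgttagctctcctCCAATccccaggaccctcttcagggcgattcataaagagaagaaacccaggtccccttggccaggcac
Col9a2 promoter, chr4:121039316-121039615, plus strand: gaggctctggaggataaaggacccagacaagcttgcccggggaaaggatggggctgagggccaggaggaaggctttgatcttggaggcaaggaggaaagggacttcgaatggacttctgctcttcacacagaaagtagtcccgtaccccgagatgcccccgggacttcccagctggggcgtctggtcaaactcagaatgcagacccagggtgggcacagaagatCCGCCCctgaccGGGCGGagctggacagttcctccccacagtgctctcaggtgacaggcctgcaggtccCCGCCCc
The upstream Col9a1 window held none of the 3 motifs, the downstream window held 1 CCAAT box, and the Col9a2 window held 3 GC boxes. Gene-level FPKM does not say which Col9a1 start was used.

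Of the other FACIT chains, Col16a1 fell with less spread between the wild-type libraries. Type XVI collagen is a minor component of fibril and basement membrane zones. Col16a1 was at 35.7 and 27.5 FPKM in wild-type against 4.04 and 4.28 FPKM in the pair labelled knockout. It fell by 2.65 (SE 0.23; limma, adjusted p = 0.024), with the smallest adjusted p of any collagen gene here. Its wild-type libraries differed 1.30-fold, against 3.17-fold for Col9a1. Col12a1 and Col14a1, FACIT chains that bind the surface of type I fibrils, were far lower. Col12a1 was at 1.77 and 1.29 against 0.787 and 0.791 FPKM and Col14a1 at 1.14 and 4.56 against 0.776 and 0.794 FPKM, neither past the threshold (limma, adjusted p = 0.145 and 0.257). Col20a1 stayed under 0.22 FPKM in all libraries.

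**Figure D3:**
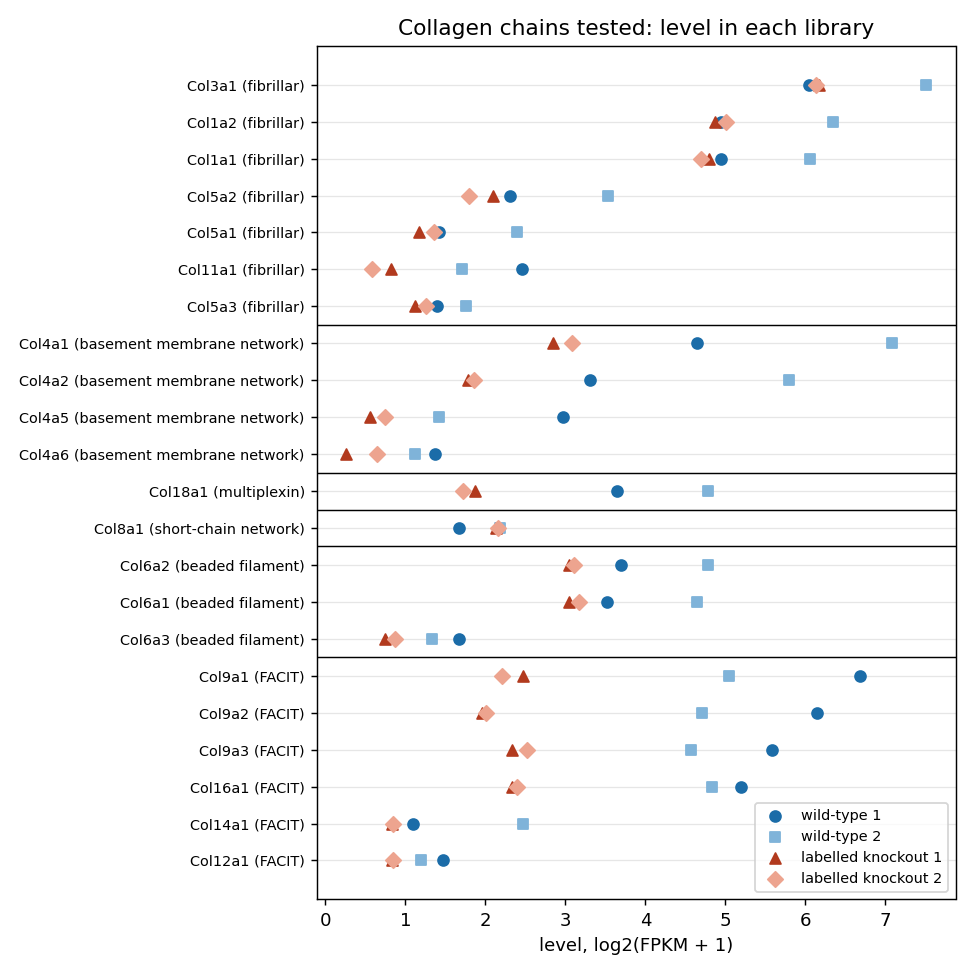
Level of each tested collagen chain as log2(FPKM + 1) (horizontal axis), 1 point per library, with chains grouped by class. For Col9a1, Col9a2, Col9a3 and Col16a1 the wild-type points lie well above both points labelled knockout; for Col3a1, Col1a2 and Col1a1 the second wild-type library alone stands apart.

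Among basement membrane collagens the multiplexin Col18a1, whose product carries endostatin at its end, fell. Col18a1 was at 11.5 and 26.6 FPKM in wild-type against 2.65 and 2.28 FPKM in the pair labelled knockout, with no overlap. The change was -2.42 (SE 0.46; limma, adjusted p = 0.046). Col15a1, the other multiplexin gene, was at 0.288 and 4.15 FPKM in wild-type against 0.286 and 0.159 FPKM in the pair labelled knockout, so only the second wild-type library was above 1 FPKM and it was not tested. Col7a1, the chain of anchoring fibrils under epithelium, was at 2.02 and 0.861 against 0.362 and 0.159 FPKM and was likewise not tested.

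Type IV collagen differed as much in mean level, but its wild-type libraries were far apart. Col4a1 was at 24.0 and 135 FPKM in wild-type against 6.21 and 7.49 FPKM in the pair labelled knockout. Col4a2 was at 8.86 and 54.4 FPKM against 2.45 and 2.62 FPKM. Both genes were lower in both libraries labelled knockout than in either wild-type library, while the wild-type libraries differed 5.62-fold for Col4a1 and 6.14-fold for Col4a2. The difference of -2.90 for Col4a1 (SE 0.90; limma, adjusted p = 0.1001) and that of -2.73 for Col4a2 (SE 0.92; limma, adjusted p = 0.115) did not pass. Without the second wild-type library they were -1.68 and -1.48, and leaving out the first gave -4.12 and -3.97. Col4a5 and Col4a6, which form a type IV network of some epithelial and smooth muscle basement membranes, had the opposite order of wild-type libraries. Col4a5 was at 6.84 and 1.68 FPKM in wild-type against 0.478 and 0.681 FPKM in the pair labelled knockout (limma, adjusted p = 0.144). Col4a6 was at 1.58 and 1.17 against 0.201 and 0.559 FPKM (limma, adjusted p = 0.082). The ratio of Col4a1 to Col4a5 was thus 3.51 in the first wild-type library, 80.4 in the second, and 13.0 and 11.0 in the pair labelled knockout.

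Col4a1 and Col4a2, 2 chains of 1 trimer, had the smallest quotient of highest over lowest ratio among the 10 chain pairs compared. They are neighbours transcribed in opposite directions, and their ratio was 2.71 and 2.48 in wild-type against 2.53 and 2.86 in the pair labelled knockout. Their promoter windows are shown because they overlap by 78 bases and the start sites of both genes lie in that stretch (RefSeq, GRCm38.p6). Capitals mark the same motifs as above.
Col4a1 promoter, chr8:11312777-11313076, minus strand: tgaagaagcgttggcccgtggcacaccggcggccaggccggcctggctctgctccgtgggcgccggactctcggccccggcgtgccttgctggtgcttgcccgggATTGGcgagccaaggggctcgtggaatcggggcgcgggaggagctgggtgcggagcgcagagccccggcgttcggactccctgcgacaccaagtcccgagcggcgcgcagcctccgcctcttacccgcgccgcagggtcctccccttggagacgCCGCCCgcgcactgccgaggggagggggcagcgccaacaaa
Col4a2 promoter, chr8:11312555-11312854, plus strand: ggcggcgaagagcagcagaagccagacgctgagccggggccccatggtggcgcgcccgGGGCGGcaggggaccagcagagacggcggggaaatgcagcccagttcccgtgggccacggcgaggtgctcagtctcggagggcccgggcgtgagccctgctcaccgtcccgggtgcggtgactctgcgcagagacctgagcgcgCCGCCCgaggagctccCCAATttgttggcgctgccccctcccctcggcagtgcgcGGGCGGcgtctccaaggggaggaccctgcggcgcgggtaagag
Shared stretch, chr8:11312777-11312854, plus strand: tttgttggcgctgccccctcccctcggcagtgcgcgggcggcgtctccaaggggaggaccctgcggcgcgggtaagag
The Col4a1 window held 1 GC box and 1 CCAAT box and the Col4a2 window 3 GC boxes and 1 CCAAT box; 1 GC box lies in the shared stretch and is counted in both. A GC content of 74.0% and 73.7% stood beside a median of 52.7% over the 32851 promoters of the table. Whether reads were counted by strand is not given in the sources used here, so reads from the overlapping first bases cannot be assigned.

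Motif counts over the collagen promoters were described without a test. The table held 38 windows for 35 of the 44 chains. A GC box was in 23 of 38 windows (60.5%), against 35.7% of all promoters. Median GC content was 59.85% in the collagen windows against 52.7% over all promoters, and its part in the GC box count was not tested. The windows are not all separate, since those of Col4a1 and Col4a2 share a GC box and those of Col6a2 overlap. A CCAAT box was in 13 (34.2%, against 37.4%) and a TATA box in 5 (13.2%, against 13.6%).

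The fibrillar chains of types I, III and V, which build the fibrils of tumor stroma, did not pass. Col3a1, the most abundant collagen gene in 3 of the 4 libraries, was at 64.9 and 182 FPKM in wild-type against 70.7 and 69.4 FPKM in the pair labelled knockout. The pair labelled knockout lay between the wild-type libraries. Col1a1 was at 29.8 and 65.8 against 26.8 and 25.0 FPKM, and Col1a2 at 29.9 and 80.2 against 28.2 and 31.2 FPKM. For these 3 genes the first wild-type library was close to the pair labelled knockout and the second was higher. The differences were -0.63 for Col3a1, -0.75 for Col1a1 and -0.71 for Col1a2 (SE 0.55, 0.44 and 0.53; limma, adjusted p = 0.444, 0.273 and 0.379). For Col3a1 the sign turned on 1 library, with a difference of 0.11 without the second wild-type library but -1.36 when the first was left out. In the same fits Col1a2 went to -0.009 and -1.40 and Col1a1 to -0.197 and -1.31. Col1a1 and Col1a2, whose products join in the type I trimer, had a ratio of 0.998 and 0.820 in wild-type against 0.950 and 0.801 in the pair labelled knockout.

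The minor fibrillar chains differed among themselves in which library was highest. Col5a1, Col5a2 and Col5a3, whose type V molecules lie inside type I fibrils, were highest in the second wild-type library, and their differences were -0.64, -0.97 and -0.39 (limma, adjusted p = 0.307, 0.229 and 0.278). Col11a1, a type XI chain known from cartilage and from activated tumor fibroblasts, was highest in the first wild-type library, at 4.50 and 2.27 FPKM against 0.762 and 0.504 FPKM (difference -1.38, SE 0.34; limma, adjusted p = 0.067). Col2a1 and Col11a2 were higher in both libraries labelled knockout but under 1 FPKM in every library and not tested: Col2a1 was at 0.0719 and 0.232 against 0.797 and 0.648 FPKM, and Col11a2 at 0.315 and 0.0759 against 0.742 and 0.567 FPKM. Col27a1 stayed under 0.40 FPKM.

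Type VI chains form beaded filaments around cells. Col6a1 and Col6a2 were highest in the second wild-type library, as were the chains of types I and III, while Col6a3 was highest in the first. Col6a1 was at 10.4 and 24.1 FPKM in wild-type against 7.27 and 7.99 FPKM in the pair labelled knockout, and Col6a2 at 11.9 and 26.5 against 7.29 and 7.61 FPKM. The groups did not overlap for either gene, and the wild-type spread was wider than the gap from its lower library to the pair labelled knockout. The differences of -0.98 and -1.16 did not pass (SE 0.45 and 0.43; limma, adjusted p = 0.196 and 0.139). They were -0.41 and -0.61 without the second wild-type library and -1.54 and -1.70 when the first was dropped. Col6a1 and Col6a2 are neighbouring genes, and their ratio lay between 0.874 and 1.05 over the 4 libraries. Col6a3, the third chain of the main type VI trimer, was at 2.18 and 1.51 against 0.673 and 0.826 FPKM (difference -0.69; limma, adjusted p = 0.096). The later type VI genes Col6a4, Col6a5 and Col6a6 stayed under 0.18 FPKM.

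The short-chain network gene Col8a1, known from vessel walls and other tissues, was the single tested chain with a positive difference. Col8a1 was at 2.17 and 3.52 FPKM in wild-type against 3.40 and 3.47 FPKM in the pair labelled knockout, so the groups overlapped (difference 0.23, SE 0.28; limma, adjusted p = 0.579). The sign turned to -0.03 without the first wild-type library, and the difference was 0.48 without the second. Col8a2 was at 0.704 and 1.08 against 0.931 and 0.733 FPKM, and Col10a1, a chain of growth plate cartilage, stayed under 0.13 FPKM.

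No transmembrane collagen reached the level needed for a test. Col13a1, a chain of cell adhesion sites, had the highest mean of the class, at 0.546 and 2.08 FPKM in wild-type, at 0.0930 FPKM in the first library labelled knockout and listed at 0 in the second. Col17a1, the hemidesmosome collagen of basal epithelial cells, was at 0.771 and 0.965 FPKM against 0.416 and 0.356 FPKM. Both lay lower in both libraries labelled knockout, without a test. Col23a1 was at 0.0277 and 0.159 against 0.184 and 0.227 FPKM, and Col25a1 stayed under 0.16 FPKM. Of the 2 unclassed chains, Col26a1 was at 0.634 and 0.492 FPKM in wild-type, with 0.0668 FPKM in the first and 0 listed in the second library labelled knockout, and Col28a1 was above 0.04 FPKM in the second wild-type library alone (0.476 FPKM).

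Which wild-type library was higher divided the chains within classes as well as between them. Of the 22 chains with a mean of at least 1 FPKM over the libraries, 8 were higher in the first wild-type library and 14 in the second; of all genes tested 47.8% were higher in the second. The 8 were Col9a1, Col9a2, Col9a3, Col16a1, Col12a1, Col11a1, Col4a5 and Col6a3. In the other 14 were the chains of types I, III and V, Col4a1, Col4a2, Col18a1, Col15a1, Col6a1, Col6a2, Col8a1 and Col14a1.

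**Figure D4:**
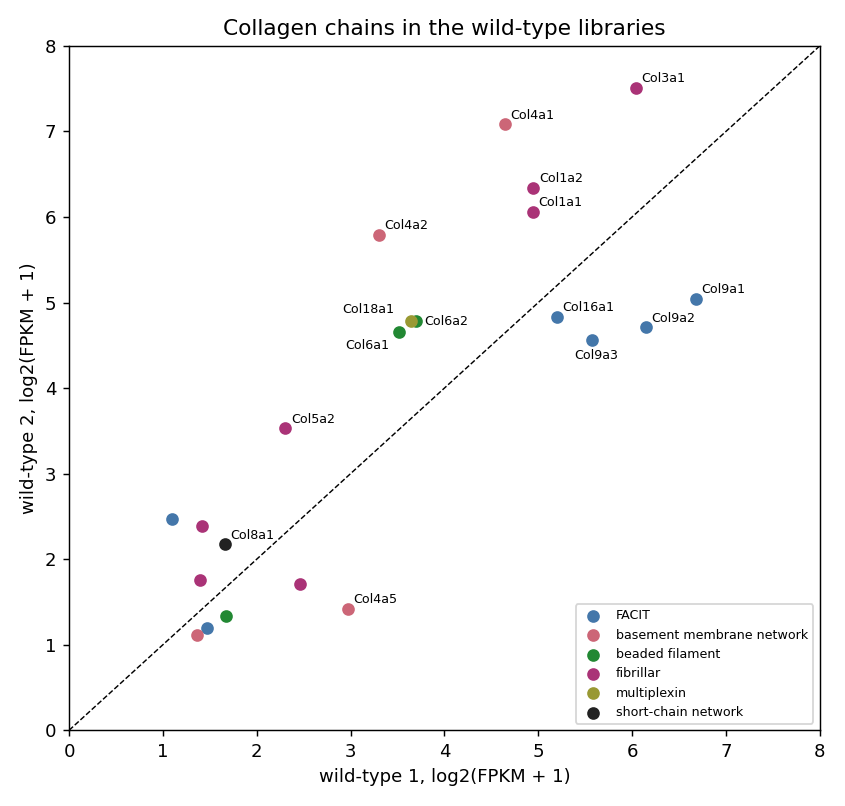
Level of each tested collagen chain in the first (horizontal) against the second (vertical) wild-type library, both as log2(FPKM + 1), colored by class; the dashed line marks equal levels. The type IX chains and Col16a1 lie below the line, whereas Col3a1, Col1a1, Col1a2, Col4a1 and Col4a2 lie above it.

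Markers of the cell types that make collagen differed between the same libraries, and their part in the collagen differences was not tested. The cells had been sorted for YFP after Cre driven by the Krt8 promoter, a gate set for cells of luminal origin. Over all genes tested 6.99% were lower and 9.51% higher past the threshold. The luminal epithelial list (7 genes, all 7 lower and 1 fell) summed to 11675 and 2606 FPKM in wild-type against 697 and 717 FPKM in the pair labelled knockout. The basal epithelial list (7 genes, 5 tested, 1 fell) summed to 500.5 and 130 against 74.5 and 90.5 FPKM. The sums of both epithelial lists were thus highest in the first wild-type library, as were the type IX chains. Of the basal genes, Acta2 (13.9 and 15.1 FPKM in wild-type), Myh11 (0.127 and 0.464 FPKM) and Oxtr (0.164 and 0.313 FPKM) were higher in the second. Krt5, Krt14, Krt17 and Trp63 were higher in the first. The fibroblast list (9 genes, 8 tested, none past the threshold) summed to 154 and 388 against 109 and 107 FPKM. The endothelial list (9 genes, 7 tested, none past) summed to 40.5 and 478 against 26.5 and 28.0 FPKM, and the pericyte list (7 genes, 4 tested, none past) to 15.0 and 38.3 against 8.37 and 11.5 FPKM. These 3 lists, and the macrophage list (166 and 4525 against 218 and 207 FPKM), were highest in the second wild-type library, as were Col1a1, Col3a1, Col4a1 and Col4a2. Of the pericyte sum Mcam held 10.1 and 27.7 against 2.89 and 4.02 FPKM. Of the 7 pericyte genes 2 (Mcam and Notch3) were lower in both libraries labelled knockout. Kcnj8 was higher in both, at 0.305 and 1.03 against 1.62 and 2.58 FPKM, and the groups overlapped for the others. The lymphocyte list (8 of 8 rose) summed to 13.1 and 48.5 against 1528 and 1442 FPKM. The adipocyte list summed to 72.5 and 382 against 20.1 and 25.4 FPKM, nearly all of it Fabp4, with Plin1 and Lep at 0 in every library. Sox10, a transcription factor of neural crest and mammary epithelial cells named after its values were seen, was at 44.9 and 12.3 against 3.05 and 2.23 FPKM, in the same library order as the type IX chains. The cartilage list summed to 74.2 and 14.7 against 4.67 and 4.46 FPKM, nearly all of it Sox9.

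**Figure D5:**
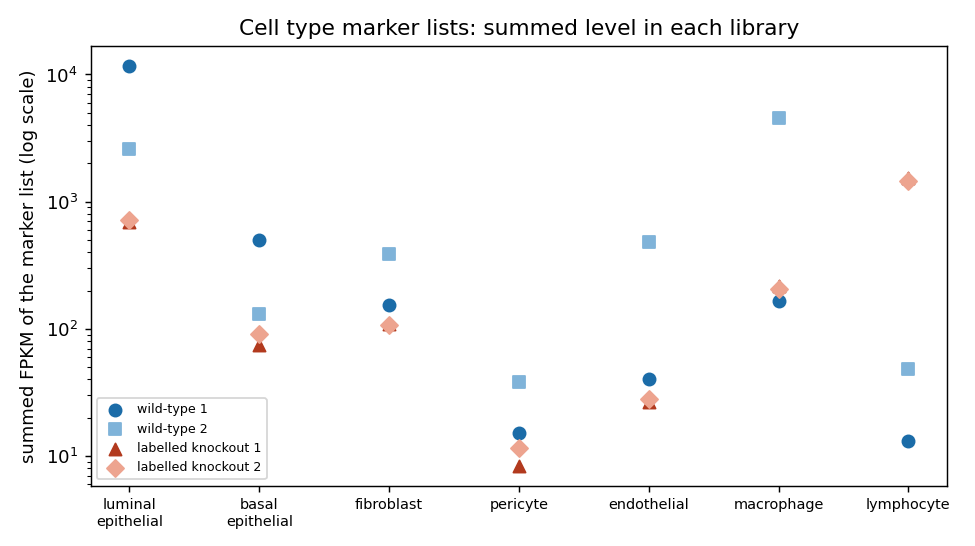
Summed FPKM (log scale) of 7 cell type marker lists, 1 point per library. Epithelial sums are highest in the first wild-type library, fibroblast, pericyte, endothelial and macrophage sums in the second, and the lymphocyte sum in both libraries labelled knockout (1528 and 1442).

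Set against these marker sums, a ratio chosen after the values were seen, the chains differed from each other. Col9a1 was 0.867% and 1.23% of the luminal sum in wild-type against 0.650% and 0.503% in the pair labelled knockout, and Col9a2 was 0.599% and 0.967% against 0.413% and 0.423%, lower in both. For Col9a3 the ratios overlapped, at 0.401% and 0.871% against 0.578% and 0.663%, and so did those for Col16a1 (0.306% and 1.05% against 0.579% and 0.597%). Col1a1 was 19.3% and 17.0% of the fibroblast sum in wild-type against 24.6% and 23.3% in the pair labelled knockout, and Col3a1 was 42.1% and 46.9% against 64.9% and 64.7%, higher in both. That sum was mostly Postn and Dcn. Of the 8 fibroblast genes tested 7 were lower by sign and 1, Fn1, was higher (1.47 and 6.37 against 3.22 and 4.33 FPKM). Ratios to single fibroblast genes were not computed, so orders against this sum depend on its make-up. Col4a1 was 59.2% and 28.2% of the endothelial sum against 23.4% and 26.7%, lower in both by a narrow margin. That margin leans on Pecam1, which held 17.5 and 16.6 FPKM of the sums of 26.5 and 28.0 FPKM in the pair labelled knockout. In wild-type Pecam1 held 5.78 and 42.8 FPKM of 40.5 and 478 FPKM. Ratios without Pecam1 were not computed, so no order is read from Col4a1 here. Col18a1 was 7.44% and 6.87% of the fibroblast sum against 2.44% and 2.13%, but overlapped relative to the endothelial sum (28.3% and 5.58% against 9.997% and 8.14%). These ratios carry no test.

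Collagen chains are hydroxylated, glycosylated and folded in the endoplasmic reticulum before secretion, and most tested genes of this step were lower in the pair labelled knockout. Of 20 listed genes 17 were tested: 3 fell, 1 rose and 13 did not pass, beside 6.99% of all tested genes lower and 9.51% higher. By sign alone 15 of the 17 were lower and 2 higher, beside 5171 lower and 5967 higher of all 11138 genes tested. Leprel2 of this list was at 2.17 and 4.85 FPKM in wild-type against 0.844 and 0.678 FPKM in the pair labelled knockout. It reached 1 FPKM through the wild-type libraries alone, so it had to be lower. Plod3, a lysyl hydroxylase and glucosyltransferase of collagen, was at 14.5 and 16.0 FPKM in wild-type against 4.69 and 5.22 FPKM in the pair labelled knockout (difference -1.45, SE 0.21; limma, adjusted p = 0.033). Ppib, the prolyl isomerase cyclophilin B, was at 279 and 309 against 154 and 144 FPKM (difference -0.97, SE 0.15; limma, adjusted p = 0.036). Serpinh1, which encodes the collagen chaperone HSP47 and was named after its values were seen, was at 226 and 85.6 against 20.99 and 20.6 FPKM (difference -2.68, SE 0.52; limma, adjusted p = 0.048). P4ha1, a catalytic subunit of prolyl 4-hydroxylase, went the other way, at 8.98 and 13.0 FPKM in wild-type against 65.1 and 59.8 FPKM in the pair labelled knockout, a rise of 2.42 (SE 0.25; limma, adjusted p = 0.025). The other subunit genes, also named after their values were seen, did not rise with it: P4ha2 was at 4.13 and 3.12 against 1.11 and 2.20 FPKM, and P4hb, which also serves as a general disulfide isomerase, at 317 and 171 against 122 and 114 FPKM (limma, adjusted p = 0.146 and 0.129). The calls of Plod3, Ppib, Serpinh1 and P4ha1 ended without either library labelled knockout. Serpinh1 also lost its call when libraries were rescaled to a common total, and when all rows above 0 were tested 0 genes of these lists passed.

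Of 12 genes for procollagen processing and crosslinking 6 were tested, 1 fell and 5 did not pass, beside the same 6.99% of all tested genes lower. Bmp1, the protease that removes the C-terminal propeptide, was at 10.8 and 8.71 FPKM in wild-type against 2.80 and 2.95 FPKM in the pair labelled knockout (difference -1.47, SE 0.23; limma, adjusted p = 0.036), a call that also ended without either library labelled knockout. Its enhancers did not pass: Pcolce was at 8.21 and 21.7 against 7.30 and 6.19 FPKM, and Pcolce2 at 2.18 and 1.15 against 0.377 and 0.304 FPKM (limma, adjusted p = 0.264 and 0.076). Pcolce2 reached 1 FPKM through the wild-type libraries alone, so it had to be lower. Of 7 collagen-binding proteoglycan genes 5 were tested and none passed. Bgn, biglycan, was at 24.2 and 40.8 against 11.2 and 12.7 FPKM, Lum, lumican, at 16.5 and 42.7 against 8.54 and 9.39 FPKM, and Ogn, osteoglycin, at 1.26 and 4.56 against 1.07 and 0.648 FPKM (limma, adjusted p = 0.067, 0.120 and 0.251).

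Of 10 collagen receptor genes 4 were tested and none passed. Itgb1, the beta subunit shared by the collagen-binding integrins, was at 99.7 and 77.9 FPKM in wild-type against 44.8 and 52.4 FPKM in the pair labelled knockout (limma, adjusted p = 0.073). Ddr1, the collagen-binding receptor kinase of epithelium, was at 17.2 and 6.33 against 4.16 and 3.69 FPKM (limma, adjusted p = 0.165). Lair1, an inhibitory collagen receptor of leukocytes, was at 0.588 and 18.8 against 1.99 and 2.17 FPKM, with its highest value in the library of the highest macrophage sum (limma, adjusted p = 0.659).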

How the data were processed

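Expression was measured by RNA-seq with a low-input SMARTer mRNA kit, per the labels' protocols, in 2 wild-type libraries and 2 labelled knockout, grouped by sample title. The deposited table holds 1 FPKM value per gene and library; its header names no unit, so FPKM was read from the authors' values, whose column totals differ and of whose low values (under 0.1 FPKM) 50.4% to 60.4% stood, within 0.2%, in whole-number ratios between libraries. The submitters' processing notes name mm9; which aligner, counter and annotation were used is not given in the sources used here. Of 24043 rows, 92 spike-in rows, all at 0, were left out. The 11138 genes reaching 1 FPKM in 2 or more libraries entered limma 3.58.1 (R 4.3.3), fitted to log2(FPKM + 1) by group alone, with trend and robust options and Benjamini-Hochberg adjustment over all of them at 0.05; this scale understates changes of low genes. Simulated data were used to check the fit. Depth in reads is not known, so no interval or floor is given. Members, classes and gene lists were chosen with earlier results of these data known. Named were Kdm1a, chains past the threshold or with a mean of at least 10 FPKM, the highest chain of each class, and from each other list up to 3 genes of lowest p whose mean reached 1 FPKM; further chains are given because all 44 are members. Symbols were matched as listed or by older names (5 of 49 pathway genes). Promoters came from RefSeq by symbol. One marker list is not reported here. Alternatives changed the pseudocount, filter, scaling, prior, replicate term or libraries used.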

Additional observations from a re-analysis of the deposited data

How the results depend on the processing

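The count of 5 collagen chains lower was the same with a pseudocount of 0.1, a filter of 5 FPKM, rescaling to a common total, median centring, quantile normalization and a plain prior. It was 0 with no filter on low values beyond leaving out rows at 0 throughout, where limma called 2 genes in all and 9 of the 22 chains had an unadjusted p under 0.05; the count tested rose from 11138 to 17257. It ranged from 0 to 20 without single libraries, and the count higher from 0 to 1. Over the 4 pathway lists 4 genes were lower and 1 higher, against 0 and 0 with no filter, and from 0 to 28 lower and from 0 to 6 higher without single libraries. The median difference over the chains tested was -0.97, and it was -2.53 with a filter of 5 FPKM, which left 12 chains. Of these, Col4a2, Col18a1, Col9a1, Col9a2, Col9a3 and Col16a1 were under 5 FPKM in both libraries labelled knockout. They passed that filter through wild-type alone and had to be lower. Neither the larger median nor the count of 5 under that filter is therefore added support. The difference turned to 0.11 for Col3a1 and to 0.95 for Lair1 without the second wild-type library, and to -0.029 for Col8a1 without the first. Left-out libraries moved Col3a1 from -1.363 to 0.109, Col8a1 from -0.029 to 0.484 and Lair1 from -2.689 to 0.955. Titles number replicates 1 and 2 in both groups, but the deviations of same-numbered libraries had a correlation of -0.06 across genes, so the numbers were not taken to pair them. With the replicate number as a block 3 collagen chains were lower (Col9a1, Col16a1 and Col9a2), and 0 pathway genes were lower; Col9a3 had an adjusted p of 0.051 and Col18a1 one of 0.057 (limma). The cause of these shifts was not tested, apart from the fewer libraries or more genes named. Depth in reads is not known, so chains under 1 FPKM were only listed.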
